A study of Homo sapiens with 6 samples.

Results

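The HOX genes of the 4 human clusters were followed through 4 lists of chromatin immunoprecipitation peaks from ACHN cells, a human renal carcinoma line. Members were taken by name: 38 HOX genes (10 of HOXA on chromosome 7, 10 of HOXB on chromosome 17, 9 of HOXC on chromosome 12 and 9 of HOXD on chromosome 2) among 20037 protein-coding genes. The study had 6 samples, and 4 of them had a peak list: H3K27me3 and EZH2, each in cells labelled ZCCHC8-WT (WT below) and in cells labelled ZCCHC8-KO (KO below), the libraries with the sgZ8 titles. The inputs, 1 per genotype, entered as the controls named in the lists. ZCCHC8 is the scaffold of the NEXT complex, which hands short-lived nuclear RNAs to the RNA exosome, and the series asks how NEXT relates to H3K27me3. There was 1 library per antibody and genotype, so differences between genotypes have no replicate check and were not tested. The sources used here say neither whether the KO cells were 1 clone or a pool, nor how deeply the libraries were sequenced. Intervals are exact 95% Clopper-Pearson intervals on counts of genes or peaks and cover counting error only.

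HOX genes encode homeodomain transcription factors that give cells along the head-to-tail axis their positional identity. Their order on the chromosome follows the order in which they act along the body, so genes at one end of a cluster (low paralogue numbers, called anterior) act towards the head and genes at the other end (high numbers, called posterior) towards the tail. HOX clusters are classical targets of Polycomb repression: PRC2, whose catalytic subunit is EZH2, places the mark H3K27me3 on silent HOX genes, while Trithorax proteins keep active ones free of it. Adult kidney cells keep a HOX code of their own, and the collecting duct and tubules depend on HOX genes of the middle and posterior groups during development.

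Of the genes listed as landmarks of renal epithelial lines, PAX8, PAX2, LHX1, VIM and KRT18 had no peak in gene plus 5 kb in any list. The keratin gene KRT8 had 1 EZH2 peak in WT, and the kidney cadherin gene CDH6 had peaks in all 4 lists. Peak lists do not measure expression, so they check neither the cell type further nor the loss of ZCCHC8 in the KO libraries. Across the whole genome the lists held 93095 (H3K27me3 WT), 69840 (H3K27me3 KO), 30734 (EZH2 WT) and 19566 (EZH2 KO) peaks.

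Most HOX genes lay in stretches without a peak of either antibody in either genotype. A gene was called marked when at least 1 peak overlapped the gene plus 5 kb on both sides by 1 bp or more. H3K27me3 marked 5 of 38 members in WT (13.2%, 4.41 to 28.1) and 5 in KO, against 26% and 23.1% of all protein-coding genes. EZH2 marked 7 members in WT (18.4%, 7.74 to 34.3) and 3 in KO (7.89%, 1.66 to 21.4), against 26.9% and 18.3% of all protein-coding genes. HOX genes are short, with a median length of 3786 bp against 24115 bp over all protein-coding genes, and a short window meets a peak less easily. Among the 5694 protein-coding genes of at most 10 kb, 16.8%, 16.5%, 12.1% and 8.55% were marked in the H3K27me3 WT, H3K27me3 KO, EZH2 WT and EZH2 KO lists. The 32 HOX genes of that length had 5, 5, 6 and 3 marked members. These shares lie near that background, so the count of marked members is not a result about HOX genes. What the lists do show is where in the clusters the peaks lay.

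The 7 HOX genes with a peak in any list were HOXA13, HOXC12, HOXC13, HOXD12 and HOXD13 at the posterior ends, and HOXC4 and HOXD1 towards the anterior ends. HOXC12, HOXC13 and HOXD13 had a peak in all 4 lists, as did 8.8% of all protein-coding genes. All 10 HOXB genes were without a peak in the 4 lists. So were HOXA2, HOXA3, HOXA4, HOXA5, HOXA6, HOXA7, HOXA9, HOXA10 and HOXA11, then HOXC5, HOXC6, HOXC8, HOXC9, HOXC10 and HOXC11, and HOXD3, HOXD4, HOXD8, HOXD9, HOXD10 and HOXD11. Over these 31 genes the nearest H3K27me3 peak was 5.46 to 105.3 kb away in WT (median 36.2 kb) and 10.7 to 214.9 kb in KO (median 46.5 kb). The nearest EZH2 peak was 6.55 to 143.8 kb away in WT (median 29.6 kb) and 8.16 to 388.2 kb in KO (median 72.6 kb). HOXC11 was the unmarked gene closest to H3K27me3 in both genotypes, and the most distant EZH2 value in KO belonged to HOXB5. A peak in any of the 4 lists was found at 43% of all protein-coding genes and at 28.4% of those of at most 10 kb.

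**Figure D1:**
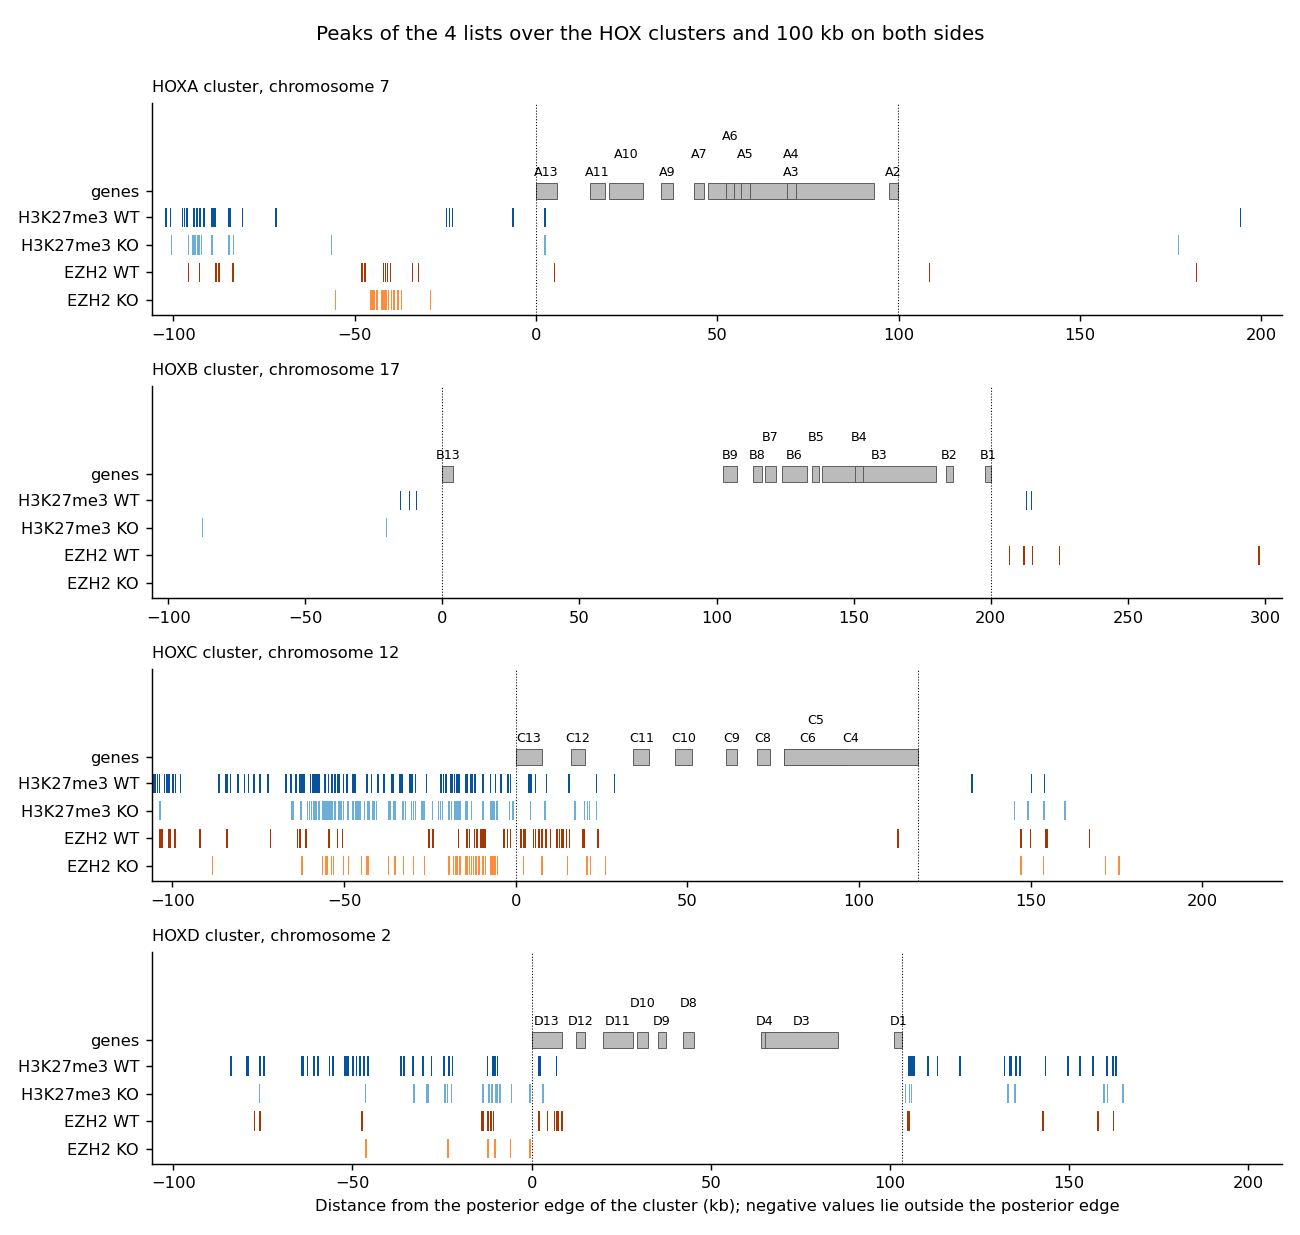
Peaks (coloured bars, drawn at least 0.4 kb wide) of the 4 lists over each HOX cluster and about 100 kb on both sides, against the distance in kb from the posterior edge of the cluster, with HOX genes as grey boxes and the cluster ends as dotted lines. Peaks crowd outside the posterior edges of HOXC and HOXD and reach into the clusters over HOXC13, HOXC12 and HOXD13. H3K27me3 peaks also lie beyond the anterior edge of HOXD. At HOXA single peaks lie in HOXA13, and the first 20 kb outside it hold only 391 bp under a peak, in H3K27me3 WT. Most peaks of that flank lie further out. The middle of every cluster is empty.

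The promoters of marked members show how close the peaks came to transcription starts. Promoter sequences (250 bases before to 50 after the start, RefSeq, GRCh38.p14) were at hand for 20 of the 38 members, as 27 promoters, of which HOXC4 and HOXC5 share 1. The 4 marked members among them with peaks at the posterior end or at HOXD1 are printed first, all written 5′ to 3′ on the strand of the gene with every CpG in capitals. CpG-rich DNA is where PRC2 is usually recruited in vertebrates. HOXD8 is shown as the unmarked member with the most CpGs, and EVX1, a homeobox gene beyond HOXA13, as a promoter next to a HOX cluster that did lie under a peak.
HOXD13, chr2:176092471-176092770, plus strand: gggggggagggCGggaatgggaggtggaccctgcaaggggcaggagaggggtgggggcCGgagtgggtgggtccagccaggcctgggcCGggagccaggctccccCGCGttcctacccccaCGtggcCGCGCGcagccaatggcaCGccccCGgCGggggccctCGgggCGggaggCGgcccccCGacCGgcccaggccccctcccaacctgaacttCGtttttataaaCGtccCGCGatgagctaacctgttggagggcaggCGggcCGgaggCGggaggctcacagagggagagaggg
HOXD12, chr2:176099545-176099844, plus strand: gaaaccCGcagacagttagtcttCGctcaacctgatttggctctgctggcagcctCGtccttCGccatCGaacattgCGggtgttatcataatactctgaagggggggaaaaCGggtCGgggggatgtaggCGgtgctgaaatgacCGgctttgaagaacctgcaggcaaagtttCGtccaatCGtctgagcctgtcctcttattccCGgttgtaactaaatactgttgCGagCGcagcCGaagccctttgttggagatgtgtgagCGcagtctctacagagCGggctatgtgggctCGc
HOXD1, chr2:176188418-176188717, plus strand: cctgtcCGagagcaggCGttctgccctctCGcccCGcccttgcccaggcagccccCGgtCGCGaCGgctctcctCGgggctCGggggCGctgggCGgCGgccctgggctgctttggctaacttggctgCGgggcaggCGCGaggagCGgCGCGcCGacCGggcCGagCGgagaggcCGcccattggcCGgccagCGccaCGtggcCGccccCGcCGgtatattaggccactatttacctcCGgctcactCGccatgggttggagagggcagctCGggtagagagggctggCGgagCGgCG
HOXA13, chr7:27200042-27200341, minus strand: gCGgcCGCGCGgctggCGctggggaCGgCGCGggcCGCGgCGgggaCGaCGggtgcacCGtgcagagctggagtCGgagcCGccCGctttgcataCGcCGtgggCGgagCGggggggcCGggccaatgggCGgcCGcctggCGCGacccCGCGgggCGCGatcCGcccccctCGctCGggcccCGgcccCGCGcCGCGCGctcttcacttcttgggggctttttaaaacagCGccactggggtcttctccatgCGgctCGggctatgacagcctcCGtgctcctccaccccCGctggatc
HOXD8, chr2:176129455-176129754, plus strand: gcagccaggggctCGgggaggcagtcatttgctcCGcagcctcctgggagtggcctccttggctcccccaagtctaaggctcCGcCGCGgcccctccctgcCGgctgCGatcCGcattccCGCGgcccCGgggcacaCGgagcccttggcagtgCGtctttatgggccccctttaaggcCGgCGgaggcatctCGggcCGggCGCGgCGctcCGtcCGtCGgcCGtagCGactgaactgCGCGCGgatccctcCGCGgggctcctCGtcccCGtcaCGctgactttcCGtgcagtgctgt
EVX1, chr7:27242552-27242851, plus strand: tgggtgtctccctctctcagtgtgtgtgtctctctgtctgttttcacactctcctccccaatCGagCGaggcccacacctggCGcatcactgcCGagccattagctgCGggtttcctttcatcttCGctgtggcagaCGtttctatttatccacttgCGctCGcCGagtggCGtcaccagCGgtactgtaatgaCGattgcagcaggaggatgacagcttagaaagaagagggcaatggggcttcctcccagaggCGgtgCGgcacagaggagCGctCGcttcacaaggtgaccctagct

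Of the 27 HOX promoters of the table, none lay under a peak in any of the 4 lists. HOXC12 and HOXC13, the members nearest to 20 and 23 of the peaks in the clusters, are not among these 27. An EZH2 peak in WT lay 342 bp from one end of the HOXC12 gene, and an H3K27me3 peak in KO 643 bp from one end of HOXC13. Over the 35116 promoters of the table, 0.886% (H3K27me3 WT), 0.695% (H3K27me3 KO), 0.646% (EZH2 WT) and 0.43% (EZH2 KO) did, so few could be found among 27. With each promoter widened by 1 kb, 1 of the 27 lay under a peak, HOXD13 in the EZH2 WT list, against 4.66%, 3.69%, 3.43% and 2.19% of all promoters in the same order. The HOXD13 promoter, with 24 CpGs, lay 447 bp from an EZH2 peak in WT and 5295 bp from the nearest in KO. The HOXD12 promoter (19 CpGs) was 3591 and 12369 bp from EZH2 peaks in WT and KO. For HOXD1 (36 CpGs) the nearest H3K27me3 peak was 3703 bp away in WT and 2920 bp in KO. For HOXA13, which had the most CpGs of all HOX promoters at 44, it was 2215 and 2197 bp away. The HOXD8 promoter had 34 CpGs and was at least 33501 bp from any peak of the 4 lists. CpG number therefore did not separate the promoters near peaks from this one. The EVX1 promoter (17 CpGs) lay under an EZH2 peak in KO and 122 bp from the nearest in WT.

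The median HOX promoter held 22 CpGs, against 14 over the table. A pair of short motifs were searched on both strands, GAGAG, the core of the GAGA element, and GCCAT, the core of the YY1 site. The motifs cannot overlap each other by more than 1 base, and copies of GAGAG can overlap. GAGAG was found in 55.6% of HOX promoters and 61.6% of all promoters, and GCCAT in 59.3% and 37.8%. In the printed promoters GAGAG occurred 3 times in HOXD13, 6 times in HOXD1 and 4 times in EVX1, and in none of HOXD12, HOXA13 and HOXD8. GCCAT occurred once each in HOXD13, HOXD12, HOXD1 and EVX1. A match is a description of the letters only.

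Peaks inside the clusters were concentrated at the posterior ends. The 4 clusters, each taken from its first to its last member plus 5 kb, held 63 peaks over the 4 lists, 45 in HOXC, 15 in HOXD, 3 in HOXA and none in HOXB. The nearest member was of paralogue groups 12 or 13 for 56 of the 63 (88.9%). The others were 5 peaks nearest to HOXD1, 1 nearest to HOXC11 and 1 inside HOXC4. Inside a member gene lay 27 of the peaks. The rest lay outside the HOX genes, some of them within the RNA genes HOXC13-AS and HOTAIR. The annotation used here gives gene ends without exons, so peaks could not be placed in exons, introns or untranslated regions.

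By position along the axis, the posterior class (groups 9 to 13, 16 members) had 4 members marked by H3K27me3 in each genotype, and 5 by EZH2 in WT and 3 in KO. The central class (groups 5 to 8, 11 members) had none in any list. The anterior class (groups 1 to 4, 11 members) had 1 member marked by H3K27me3 in each genotype, HOXD1. EZH2 marked 2 of its members in WT (HOXD1 and HOXC4) and none in KO. Over all protein-coding genes the marked shares were 26% and 23.1% for H3K27me3 in WT and KO, and 26.9% and 18.3% for EZH2. Among those of at most 10 kb they were 16.8%, 16.5%, 12.1% and 8.55% in the same order. Classes of 11 and 16 members are too small to be set apart from these shares, and no test was run. Of the cluster length nearest to posterior members, 278.2 kb, H3K27me3 peaks covered 1.47% in WT and 1.26% in KO, and EZH2 peaks 3.33% and 0.719%. The 204.5 kb nearest to anterior members had 1.01% and 0.434% under H3K27me3 and 0.410% and none under EZH2. No peak touched the 77.9 kb nearest to central members. Neighbouring members share chromatin and windows, so the classes are counts of neighbours and not of independent genes.

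HOXC13 and HOXC12, the posterior pair of HOXC, carried more EZH2 peaks than any other member. HOXC13 (chr12:53938831-53946544), a factor of hair and nail keratin genes, had 13 EZH2 peaks over 5194 bp of its 17714-bp window in WT and 2 peaks over 931 bp in KO. In the gene itself 6 peaks stood against 2. H3K27me3 at HOXC13 had 6 peaks over 2188 bp in WT and 4 peaks over 1341 bp in KO. In the 5-kb window EZH2 peaks at HOXC13 were thus fewer in KO by a larger factor than H3K27me3 peaks. This is a difference that 1 library per group cannot test. Scores, the authors' own value for each peak, ranged from 8 to 16 for the WT EZH2 peaks there and were 8 and 11 for the KO peaks. With 10 kb on each side EZH2 covered 28.0% in WT and 13.6% in KO, against 29.3% and 5.26% with 5 kb. The size of the EZH2 difference at HOXC13 therefore depends on the window.

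HOXC12 (chr12:53954903-53958956) differed in direction between the antibodies. It had 9 EZH2 peaks over 2543 bp in WT and 3 over 593 bp in KO, but 2 H3K27me3 peaks over 378 bp in WT and 5 over 1277 bp in KO. The windows of HOXC13 and HOXC12 share 1642 bp, in which 2 of the WT EZH2 peaks lay, so these count for both genes. With 5 kb on each side, HOXC12 was the sole member whose H3K27me3 coverage was higher in KO. With 10 kb on each side the difference turned positive at HOXC13 (1.41 points) and HOXD13 (2.64 points) too.

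HOXC4 (chr12:54016888-54056030), an anterior gene whose record shares its start with HOXC5 and HOXC6, had 1 EZH2 peak of 164 bp with a score of 10 in WT. The peak lay in the part of HOXC4 that extends beyond both neighbours, and no other list had a peak there. The nearest EZH2 peak in KO was 29811 bp from the gene.

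At the posterior end of HOXD, HOXD13 (chr2:176087487-176095944), needed for digits and the urogenital tract, had peaks in all 4 lists. Its EZH2 peaks numbered 5 over 1804 bp in WT and 1 over 306 bp in KO, and the KO peak lay 311 bp outside the gene. Its H3K27me3 peaks numbered 2 in each genotype, over 972 bp in WT and 699 bp in KO, and none of them overlapped a peak of the other genotype. HOXD12 (chr2:176099795-176102489), its neighbour, had 2 EZH2 peaks in WT over 627 bp, both within the 6150 bp that its window shares with HOXD13. It had no peak in the other lists, and no peak touched the HOXD12 gene.

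HOXD1 (chr2:176188668-176190907), at the anterior end, stood apart from the HOX genes next to it. Further H3K27me3 peaks lay beyond it in the anterior flank, 15 in WT and 5 in KO. A single H3K27me3 peak of 2067 bp with a score of 14 lay 1513 bp beyond the gene in WT. In KO, 3 H3K27me3 peaks with scores of 5 to 8 lay there, covering 887 bp in all, and 2 of them overlapped the WT peak. EZH2 had 1 peak of 674 bp beside HOXD1 in WT, overlapping the WT H3K27me3 peak, and none in KO, where the nearest was 101492 bp away. The antisense RNA gene HAGLR next to HOXD1 shares these peaks in its window.

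HOXA13 (chr7:27194364-27200091), a limb and hindgut gene, was the single marked member of HOXA. It had 1 H3K27me3 peak of 285 bp in WT and 1 of 195 bp in KO, which overlapped, and 1 EZH2 peak of 194 bp in WT and none in KO. On chromosome 7 as a whole the length under peaks in KO was 0.342 times that in WT for H3K27me3 and 0.408 times for EZH2. On chromosomes 2, 12 and 17 these ratios were 0.760, 0.691 and 1.09 for H3K27me3 and 0.736, 0.732 and 0.885 for EZH2. The part of that in the values of HOXA13 was not tested.

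**Figure D2:**
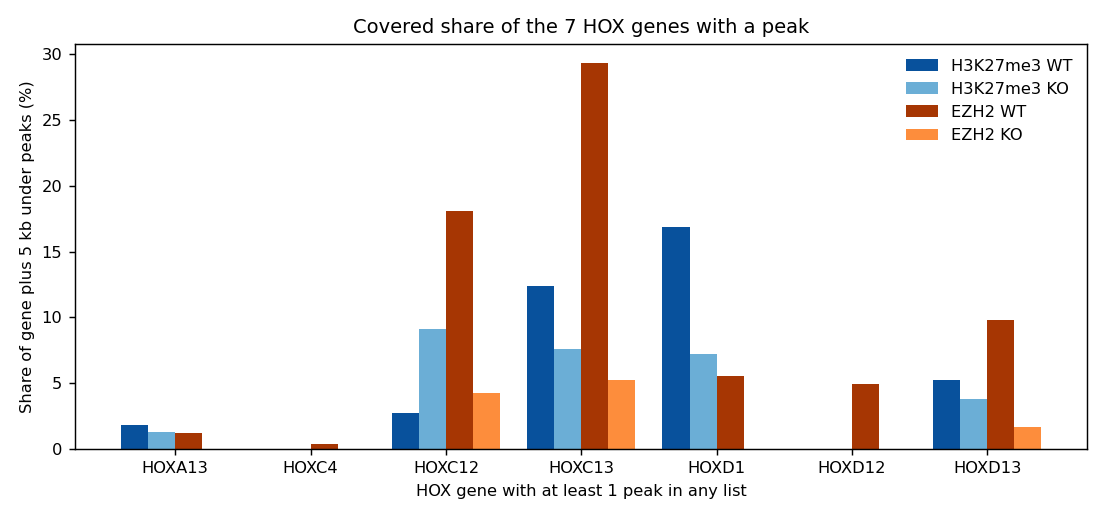
Share of gene plus 5 kb under peaks (vertical axis, percent) for the 7 HOX genes with at least 1 peak, with 1 bar per list and no replicates. EZH2 in WT is highest at HOXC13 (29.3%) and HOXC12 (18.1%), H3K27me3 in WT at HOXD1 (16.9%), and the EZH2 bars are lower in KO for all 7 genes.

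With 5 kb on each side, all 7 members with an EZH2 peak in WT had less EZH2 coverage in KO, 4 of them none, and no member had more. Over all protein-coding genes EZH2 coverage was lower in KO at 22.1% and higher at 10.5%, and it was lower at 18.4% of HOX genes (7 of 38). With 10 kb on each side, HOXC11 was marked by EZH2 in KO only. Its nearest EZH2 peak was 8159 bp away in KO and 10154 bp in WT. For H3K27me3, 4 members were lower and 1 higher in KO, against 18.2% and 12.8% of all protein-coding genes. Of the 4 lower members, HOXC13 and HOXD13 were higher in KO in the wider window of 10 kb, so this tally depends on the window. H3K27me3 marked the same 5 members in both genotypes, a state that 18.1% of all protein-coding genes had, and marked no member in 1 genotype only. The share of all protein-coding genes marked in WT only was 7.88%, and in KO only 5.03%. For EZH2 the members were 3 in both genotypes, 4 in WT only and none in KO only, against 12.6%, 14.3% and 5.74% of all protein-coding genes. Over all 38 members the mean difference in covered share was -0.265 points for H3K27me3 and -1.53 points for EZH2, and over all protein-coding genes -0.134 and -0.0820 points. The median was 0 for both, since most genes had no peak. The mean covered shares in WT were 1.03% (H3K27me3) and 1.82% (EZH2) for the members, and 0.822% and 0.315% for all protein-coding genes. The largest EZH2 differences among the members were at the neighbours HOXC13 (-24.1 points) and HOXC12 (-13.9 points), so the mean leans on 1 locus.

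Summed over the 4 clusters, EZH2 peaks numbered 28 over 10114 bp in WT and 7 over 2001 bp in KO, a ratio of 0.250 for peaks and 0.198 for length. The whole lists had ratios of 0.637 and 0.706. HOXC alone held 21 and 6 of these peaks. Without HOXC the counts were 7 and 1, over 2672 and 306 bp. All these values hold for a margin of 5 kb. In the 100 kb beyond the posterior margins, EZH2 peaks numbered 41 over 15528 bp in WT and 46 over 18466 bp in KO. HOXD alone had less length under EZH2 in KO there (2689 and 1188 bp). Beyond the anterior margins EZH2 peaks numbered 15 over 3646 bp and 4 over 927 bp. With a margin of 20 kb, HOXC had 6.94% under EZH2 in WT and 5.72% in KO, against 5.85% and 1.33% with 5 kb. The size of the difference at HOXC therefore depends on the margin. H3K27me3 in the clusters numbered 13 peaks over 6169 bp in WT and 15 peaks over 4399 bp in KO, a ratio of 1.15 for peaks and 0.713 for length, beside 0.750 and 0.732 for the whole lists. The difference between antibodies was not tested.

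Around HOXA, HOXC and HOXD, H3K27me3 peaks were most numerous beyond the posterior edge. For EZH2 in WT, HOXC had 21 peaks in the posterior flank, 21 in the cluster and 5 in the anterior flank, and HOXD had 7, 6 and 3. Outside the posterior edge of HOXC, in the 100 kb beyond its 5-kb margin, H3K27me3 peaks covered 29.7% in WT (52 peaks) and 27.6% in KO (41 peaks), against 2.81% and 1.94% of chromosome 12. Within the cluster they covered 2.24% and 2.06%, and in the 100 kb beyond the anterior edge 0.906% and 1.41%. Outside the posterior edge of HOXD, coverage was 11.1% in WT (28 peaks) and 5.03% in KO (14 peaks), against 2.68% and 1.40% within the cluster. In the 100 kb beyond the anterior edge of HOXD it was 5.87% (15 peaks) and 1.97% (5 peaks), also above the cluster. Outside the posterior edge of HOXA it was 8.34% (17 peaks) and 3.40% (10 peaks), against 0.260% and 0.178% within. Beyond the anterior edge of HOXA it was 0.247% and 0.294%. HOXB had 3 and 2 H3K27me3 peaks in its posterior flank and no EZH2 peak there in either genotype. HOXB13, the posterior gene of that cluster and a prostate and hindgut factor, lay 9.35 kb from the nearest H3K27me3 peak in WT and 20.5 kb in KO.

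**Figure D3:**
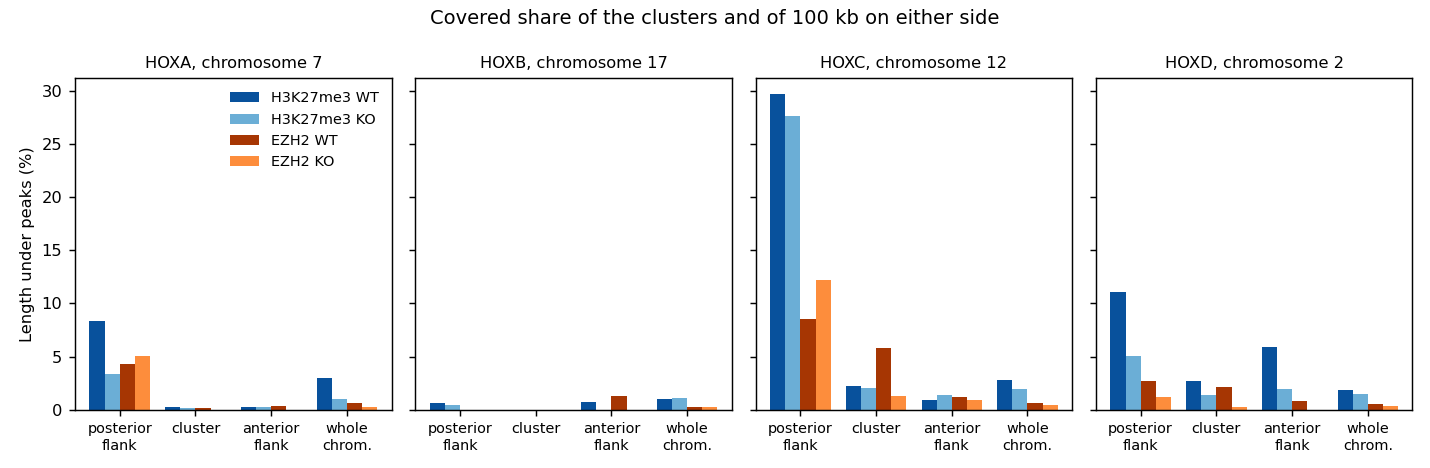
Share of length under peaks (vertical axis, percent) in the 100 kb outside the posterior edge, the cluster with 5 kb, the 100 kb outside the anterior edge and the whole chromosome, for the 4 clusters and 4 lists. The posterior flanks of HOXA, HOXC and HOXD stand above their clusters in every list, with 29.7% for H3K27me3 at HOXC in WT, while HOXB has no covered base within the cluster.

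The posterior flanks hold few HOX-related genes but include the EVX genes, even-skipped homeobox genes that sit beyond the HOXA13 and HOXD13 ends. EVX2 had 3 H3K27me3 peaks in WT and 7 in KO (9.40% and 17.5% of its window), and 4 EZH2 peaks in each genotype (11.1% and 6.54%). EVX1 had 6 EZH2 peaks in WT and 9 in KO (16.9% and 29.5%) and no H3K27me3 peak in either. Between 30 and 50 kb outside HOXA13, EZH2 covered 370 and 2543 bp of the outward 10-kb steps in WT, and 1254 and 3355 bp in KO, and H3K27me3 covered none of it. H3K27me3 peaks in that flank lay mainly 80 to 100 kb from HOXA13, with 2699 and 3136 bp per 10-kb step in WT and 700 and 1964 bp in KO. Beyond HOXC13 no homeobox gene is annotated within 100 kb. Of the nearest protein-coding genes on the other sides, SMUG1 and MTX2 had no peak, and TTLL6 had 1 H3K27me3 peak, in KO. CALCOCO1, on the HOXC13 side, had 1 and 3 H3K27me3 peaks in WT and KO and no EZH2 peak. SKAP1, a long gene beyond HOXB1, had 1 and 6 H3K27me3 peaks and 5 and 2 EZH2 peaks.

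At HOXC the EZH2 peaks of the genotypes took different places along one stretch. Over the flank and cluster together EZH2 peaks covered 15943 bp in WT and 13952 bp in KO, a ratio of 0.875. Of that length, 46.7% lay within the cluster in WT and 12.1% in KO. In the first 10 kb from the HOXC13 end inwards EZH2 covered 3671 bp in WT and 931 bp in KO, and in the next 10 kb 2304 and 176 bp. In the first 10 kb outwards it covered 2198 and 2660 bp, and in the next 10 kb 2180 and 4636 bp. Between 30 and 50 kb outwards the WT list had no EZH2 peak and the KO list had 678 and 1205 bp under EZH2 peaks in the outward steps. H3K27me3 over the same flank and cluster covered 32542 and 30266 bp, with 8.74% and 8.65% of it within the cluster. At HOXD the share of EZH2 length within the cluster was 47.96% in WT and 20.5% in KO, on 5167 and 1494 bp. At HOXA it was 4.28% and none, on 4532 and 5021 bp.

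The inner limit of the HOXC block lay in the same interval in all 4 lists. The innermost peak ended 28.8 kb from the HOXC13 end for H3K27me3 in WT and 23.6 kb in KO, and 24.1 and 26.1 kb for EZH2. All 4 ends fall within HOTAIR (chr12:53962312-53974954), between HOXC12 and HOXC11. HOTAIR is a long non-coding RNA gene known for its link to Polycomb complexes. At HOXD the innermost peaks of the posterior block ended 6.93 kb (H3K27me3 WT), 3.30 kb (H3K27me3 KO) and 8.47 kb (EZH2 WT) inside the HOXD13 end, in peaks that overlap HOXD13, and that of EZH2 in KO stayed outside the gene, where it overlapped an H3K27me3 peak of the KO list. At HOXA each of the same lists had a single peak in the cluster, which ended 2.55, 2.44 and 4.998 kb inside, within HOXA13. The nearest EZH2 peak in KO lay 29168 bp outside.

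Beyond these limits the clusters held long stretches without a peak in any of the 4 lists. In HOXA the stretch was 103.2 kb long and contained the 9 members from HOXA2 to HOXA11. In HOXB it was 216.1 kb and contained all 10 members. In HOXC it was 82.3 kb and contained 6 members from HOXC5 to HOXC11. In HOXD it was 95.7 kb and contained 8 members from HOXD1 to HOXD12, since the peaks counted for HOXD1 and HOXD12 lay in their 5-kb margins. Such stretches are common where genes are dense: of 958 100-kb tiles of the genome with at least 4 protein-coding genes, 43.1% held no peak of any list, and of 1593 200-kb tiles 19.2%. The lack of peaks over the middle of the clusters is therefore no rare state in these lists. An absent peak shows that the list holds none, and the read coverage behind it is not known.

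Peaks of the WT and KO lists overlapped in part, both within the clusters and outside their posterior edges. Of the WT H3K27me3 peaks in the posterior flanks, 41 of 100 overlapped a KO peak (31.3% to 51.3%), and of the KO peaks there 40 of 67 (59.7%, 47.0% to 71.5%) overlapped a WT peak. Over the whole lists these shares were 15.9% and 21.4%. Within the clusters 4 of 13 WT peaks and 5 of 15 KO peaks were shared. For EZH2, 3 of 28 WT peaks in the clusters (10.7%, 2.27 to 28.2) overlapped a KO peak, against 5.13% of the whole list, and 9 of 41 (22.0%, 10.6 to 37.6) in the posterior flanks. Of the KO EZH2 peaks 3 of 7 within the clusters (42.9%, 9.90 to 81.6) and 9 of 46 in the posterior flanks (19.6%, 9.36 to 33.9) overlapped a WT peak, against 7.97% of the whole list. The intervals of cluster and flank overlapped for both antibodies and in both directions. How many peaks of a second library of one genotype would be shared is not known from 1 library each.

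EZH2 and H3K27me3 peaks overlapped in part. Within the clusters 8 of 28 WT EZH2 peaks (28.6%, 13.2 to 48.7) and 2 of 7 KO EZH2 peaks overlapped an H3K27me3 peak of the same genotype, beside 13.97% and 18.997% of the whole lists. In the posterior flanks it was 17 of 41 in WT (41.5%, 26.3 to 57.9) and 26 of 46 in KO (56.5%, 41.1 to 71.1). Scores of H3K27me3 peaks in the clusters ran from 7 to 15 in WT (median 10) and 5 to 9 in KO (median 7), and those of EZH2 peaks from 8 to 16 (median 10.5) and from 5 to 11 (median 8). The medians of the whole lists were lower, at 7, 6, 7 and 5 in the same order. Both lists of a genotype share an input.

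Peaks also lay at some of the non-coding genes of the clusters. Of 17 long RNA genes, 4 had an H3K27me3 peak in each genotype (HOXC13-AS, HOTAIR, HAGLR and HOTTIP), while EZH2 peaks lay at 4 in WT and 2 in KO. For H3K27me3 this is 23.5% in each genotype, beside 26% and 23.1% of all protein-coding genes. For EZH2 it is 23.5% and 11.8%, beside 26.9% and 18.3%. The RNA genes are short, with a median length of 4316 bp. Protein-coding genes of at most 10 kb had lower shares, 16.8% and 16.5% for H3K27me3 and 12.1% and 8.55% for EZH2. The interval of 4 of 17 genes ran from 6.81% to 49.9%, and the difference was not tested. HOXC13-AS, antisense to HOXC13, had 16.6% and 19.7% of its window under H3K27me3 in WT and KO, and 20.04% and 17.1% under EZH2. HOTAIR had 2.08% and 4.89% under H3K27me3 and 3.53% and 2.60% under EZH2. HOTTIP, beyond HOXA13, had 4.01% and 1.16% under H3K27me3 and no EZH2. HAGLR had 1 EZH2 peak in WT and none in KO, and so had HOTAIRM1. The 6 miRNA genes of the clusters, MIR10A, MIR10B, MIR196A1, MIR196A2, MIR196B and MIR615, had no peak in any list.

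Other homeobox genes of the same ANTP class, to which HOX genes belong, carried peaks at larger shares of genes in these lists. Of 59 such genes outside HOX, 32 (54.2%, 40.8 to 67.3) had an H3K27me3 peak in WT and 33 (55.9%) in KO, and 36 (61.02%, 47.4 to 73.5) had an EZH2 peak in WT (34, or 57.6%, in KO). Among those of at most 10 kb the counts were 23, 26, 29 and 29 of 49. LBX1, of muscle precursors, had 47.8% and 45.96% under EZH2 in WT and KO, and GSX2, of the forebrain, 34.4% and 8.62%. EN1, a midbrain gene, had 11.4% and 33.9% under EZH2. GBX1 had 24.1% and 7.45% under H3K27me3, DLX6 19.3% and 5.65%, and DLX5 6.30% and 14.8%. The difference from the HOX genes was not tested. EZH2 coverage was lower in KO for 23 and higher for 19 of the 59. With 5 kb on each side, the 7 HOX genes with any change were all lower. These are not 7 separate cases, since HOXC13 and HOXC12 share 2 WT EZH2 peaks, and so do HOXD13 and HOXD12.

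**Figure D4:**
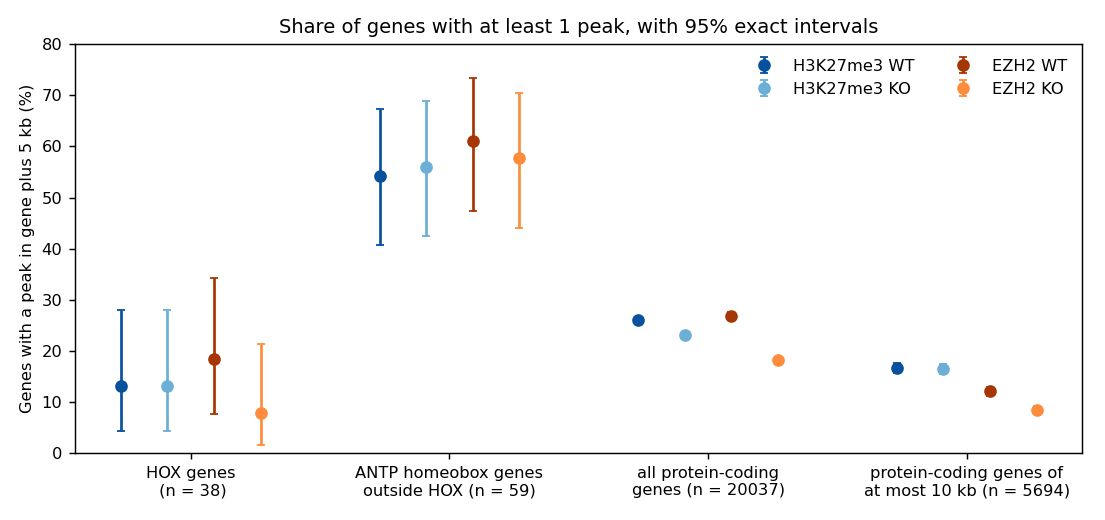
Share of genes with at least 1 peak in gene plus 5 kb (vertical axis, percent; bars are exact 95% intervals that treat genes as independent) for HOX genes, other ANTP homeobox genes, all protein-coding genes and those of at most 10 kb, in the 4 lists. HOX genes lie between 7.89% and 18.4%, near the short genes, and the other ANTP genes between 54.2% and 61.02%.

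HOX proteins bind DNA together with cofactors, among them the MEIS and PKNOX proteins. MEIS1 had 17 H3K27me3 peaks in WT and 2 in KO, and 7 and 1 EZH2 peaks. PKNOX2 went the other way for H3K27me3, with 15 and 30 peaks, and had 10 EZH2 peaks in each genotype. Both genes are long, so a peak within them is easily met. Another list held 24 genes that regulate HOX expression, among them Polycomb, Trithorax and retinoic acid receptor genes. Of these, 5 and 7 had an H3K27me3 peak and 10 and 5 an EZH2 peak in WT and KO. These are 20.8%, 29.2%, 41.7% and 20.8%, beside 26%, 23.1%, 26.9% and 18.3% of all protein-coding genes. The 24 genes are longer, with a median of 46615 bp against 24115 bp, and the difference was not tested. KMT2A, the Trithorax methyltransferase, had 1 EZH2 peak in WT, and BMI1, a PRC1 subunit, had 3 and 2 EZH2 peaks.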

How the data were processed

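ACHN chromatin was crosslinked, sheared by sonication, immunoprecipitated and sequenced from both ends, per the labels' protocols. Per the submitters' processing notes, cutadapt 1.9.3, Bowtie2 2.2.4 and hg38 were used. The peak caller and the depth of each library were not given in the sources used here. Groups came from the sample titles. The deposited lists have 6 columns and no header. The fifth holds the peak length in bp, which matched 1-based, end-inclusive coordinates. The sixth holds the authors' score, whose definition is unknown, so it served only to rank or filter peaks. The peak names carry 1e-3. Identical lines were counted once. With unknown depth, a difference in peak number can follow depth or calling as well as the chromatin.

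Gene ends came from the RefSeq table (GRCh38.p14), where all 38 members were found. Members and lists were chosen with earlier results of these data known. The rule for names took every member with a peak in any list, the nearest protein-coding gene on each side of a cluster (that on the anterior side of HOXA is not reported here), cluster RNA genes with a peak and, of 59 other ANTP genes, the 2 most covered in each list; KRT8, CDH6, the cofactor and the regulator genes named were chosen after their values were seen. Marked genes, covered shares, overlaps and exact intervals were computed in Python 3.11.15 (with pandas 2.3.3, NumPy 2.4.6 and SciPy 1.17.1), and figures with matplotlib 3.10.9. As a check of the code, all peaks at 200 of 20037 genes were removed, and all 200 were called lost for each antibody. That outcome is fixed by construction and does not measure how well differences between genotypes are called. Alternatives changed the window, score threshold, list size, overlap, cluster margin and class limits. Some items of the gene lists are not reported here.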

Additional observations from a re-analysis of the deposited data

How the results depend on the processing

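Counts and covered shares were held the same if within 1.5 times, and shares of overlapping peaks if within their interval. Of the recomputed main values 138 were the same and 32 were not. With the gene alone as window, H3K27me3 marked 3 members in WT, EZH2 1 in KO, both genotypes shared 3 (H3K27me3) and 1 (EZH2), and 1 was marked by H3K27me3 in KO only. Anterior members were then 0 and 0 for H3K27me3 in WT and KO and 1 for EZH2 in WT, and posterior ones 1 for EZH2 in KO. With 10 kb, H3K27me3 marked 8 in WT, WT only held 2 (H3K27me3) and 7 (EZH2), and EZH2 in KO only 1. With a score of at least 7, H3K27me3 marked 1 member in WT only and covered 0% of HOXA in KO. Without a margin, HOXD had 0.940% and 0.255% under H3K27me3 in WT and KO and 0% under EZH2 in KO. With 20 kb, HOXA had 0.484% (H3K27me3 WT) and 0.276% (EZH2 WT), and HOXB 0.553% and 0.334%. HOXC then had 5.46% and 5.79% under H3K27me3 in WT and KO. Under EZH2 it had 6.94% in WT (held the same) and 5.72% in KO. HOXD had 2.81% (H3K27me3 KO) and 0.752% (EZH2 KO). Counting peaks within 1 kb as shared gave 61.5% (H3K27me3 WT in KO), 66.7% (KO in WT), 28.6% (EZH2 WT in KO) and 57.1% (WT EZH2 with H3K27me3). Promoters widened by 1 kb put 1 under EZH2 in WT. The direction of the H3K27me3 difference reversed in 3 cases: HOXC with 20 kb (0.333 points), and HOXC13 (1.41) and HOXD13 (2.64) with 10 kb. No EZH2 difference reversed under the alternatives run, but HOXC11, without an EZH2 peak at 5 kb, was higher in KO with 10 kb. Wider windows take in the flanks, by construction; other causes were not tested. A flank of 50 kb was added after seeing the data. No paired analysis was possible because each group had 1 library and the labels carry no replicate numbers.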
